A study of Mus musculus with 15 samples.

Results

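The genes described here are 38 genes of enteric neurons, enteric glia and peptide-secreting cells. They were read in the mucosa of the mouse distal colon during chronic colitis. They were chosen by name and by what their products do, with earlier results of these data known. All 38 had at least 1 probe on the array, and 30 of them were measured, that is, had a probe whose signal rose well above background on 5 or more of 15 arrays; 22015 genes passed this filter in all. Female Balb/cJ mice, 8 weeks old, formed 3 groups of 5. The water group drank water; the group called DSS vehicle here drank 4% dextran sodium sulfate (DSS), which damages the gut lining, in 3 cycles of 4 days with 3 days of plain water between, and was given the vehicle of the drug; the third group had the same DSS cycles and a daily oral dose of 30 mg/kg filgotinib, a drug that inhibits the kinase JAK1 in preference to its relatives. The labels list a vehicle control as the compound of the water mice, while the design text names drinking water alone. Mucosa was scraped from the last 30 mm of the descending colon, and 1 array was hybridised per mouse with labelled RNA. The comparisons ask how DSS colitis changed these genes and how they stood in colitis mice given the JAK1 inhibitor.

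The gut wall holds its own nervous system, whose neurons lie in a plexus between the muscle layers and another beneath the mucosa and send fibres into the mucosa. These neurons and their glia depend in development on the receptor tyrosine kinase Ret, which binds glia-derived neurotrophic factor (GDNF) and its relatives through GFRA co-receptors. Enteroendocrine cells, the hormone-secreting cells of the epithelium, share with neurons the machinery that packs peptides into dense-core granules and cuts prohormones, so that many of these genes are active in both. A scraped mucosa holds the epithelium and nerve fibres but few nerve cell bodies, and RNA in fibres is scarce. In such bulk samples, fewer cells of a type and less RNA per cell cannot be told apart.

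The water arrays were the brightest. The 75th percentile of the processed signal lay between 684 and 813 in the water group, 570 and 667 in DSS vehicle and 552 and 663 in filgotinib with DSS, so that every water array lay above every DSS array before scaling. The share of probes well above background was 58.0% to 62.1%, 52.97% to 58.6% and 50.2% to 58.3% in the same order; the part of this difference in the results was not tested. Levels below are log2 of the processed signal minus the array's 75th percentile, so that 0 is the level of a probe at that percentile and 1 unit is a doubling. Differences of means are on the same log2 scale with their standard error (SE), from 1 limma fit over all 15 arrays; a gene was called at a Benjamini-Hochberg adjusted p under 0.05 over all 22015 genes, and only called genes are said to have risen or fallen. The defining markers of the labelled tissue were present, since all 8 genes listed for colon epithelium were measured. The arrays lay on 6 slides that were uneven over the groups: slide 4 held 2 water mice and 1 DSS vehicle mouse, slide 2 held 3 DSS vehicle and 2 filgotinib mice, and no slide held water and filgotinib mice together.

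Detection set a first limit on which of these genes can be described. Of the 30 measured members, 22 were well above background on all 15 arrays and 8 on 5 to 14. The other 8 were not well above background often enough to be tested: Gfra1, a GDNF co-receptor; Prph, the peripheral neuron filament; Gap43, of growing axons; the peptide genes Vip and Calca; Nos1, the neuronal nitric oxide synthase; and the glial genes S100b and Sox10. Calca and S100b were above background on 0 arrays, Gfra1 and Prph on 1 and Gap43, Vip, Nos1 and Sox10 on 2. DSS vehicle mouse 1 was the array in DSS vehicle on which Prph, Gap43, Vip and Sox10 were each detected. Genes that define enteric glia and the nitrergic and VIP neurons of the gut thus had no value that can be compared between groups.

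**Figure D1:**
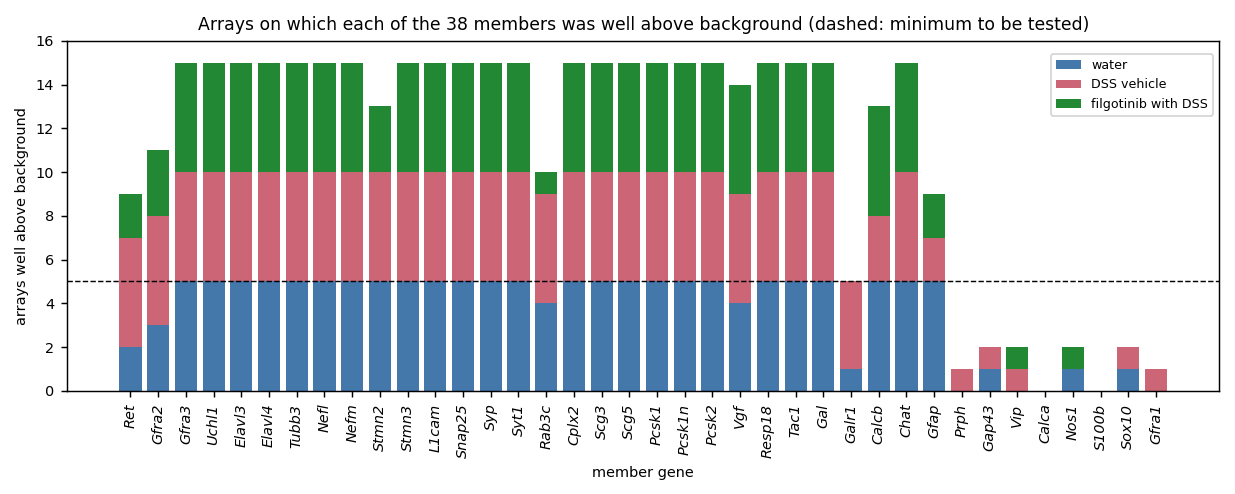
Number of arrays (y axis, of 15, stacked by group) on which each member gene (x axis) was well above background; the dashed line marks the 5 arrays needed to be tested. The 30 measured members stand on the left and the 8 that were not measured, at 0 to 2 arrays, on the right.

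What some probes read is limited by their sequence. An array probe is a DNA strand of 60 bases, and 182 of the 56504 probes (0.322%) hold a tandem repeat of at least 20 bases, with a unit of 1 to 6 bases; 4 of these probes belong to members, and 3 of them supplied the values of Snap25, Cplx2 and Chat. They are shown because repeats of this kind occur at many places in the genome. The first 30 bases are given for Snap25 and Cplx2 and the last 30 for Chat, 5′ to 3′, with the repeat in capitals, placed by the file headers in build mm9 at chr2:136607709-136607738 (plus strand) for Snap25, chr19:44414679-44414708 (plus strand) for Cplx2 and chr14:33221421-33221450 (minus strand) for Chat.
Snap25: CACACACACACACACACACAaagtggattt
Cplx2: AGGAGGAGGAGGAGGAGGAGGAGGAGGAGG
Chat: gctattcAGAAAGAAAGAAAGAAAGAAAGA
These positions are the file's own and were not checked against the genes. The repeats run over 20, 44 and 23 bases of the probes. Values of these 3 genes below are values of the probes, and whether they read the named transcripts was not tested.

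Other probes are shown because the results turn on them. These are the first 30 bases of the probes for Ret (mm9, chr6:118101821-118101850, minus strand) and Calcb (chr7:121866534-121866563, plus strand) and of both Vgf probes (used, chr5:137509153-137509182; second, chr5:137508414-137508443; plus strand), which gave different changes, and all 60 bases of the second Tac1 probe (chr6:7507722-7509136, plus strand), whose ends lie 1415 bases apart in the genome, so that it crosses an exon junction.
Ret: ccataccgtgttgacttgtttttgtaatca
Calcb: ccgttgttacttgagaggaatgaaaccaag
Vgf, used probe: ctctgttgtaaatacccctcacggaggaaa
Vgf, second probe: atgagttgccggactggaacgaagtgctcc
Tac1, second probe: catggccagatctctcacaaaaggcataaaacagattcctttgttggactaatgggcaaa
Whether the other probes lie in an exon, an intron or a UTR was not analysed here.

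In DSS vehicle mice 15 of the 30 measured members were higher than in water mice and 1, the peptide gene Calcb, was lower. Among the higher ones were Ret (4.95-fold), Vgf (3.11-fold), Uchl1 (2.65-fold) and Gfra3 (2.47-fold). The second Vgf probe differed by only 0.10 in log2. Ret was well above background on only 2 of 5 water arrays, so that its fold rests in part on background readings. Ret and the receptor gene Galr1 passed the filter of 5 arrays only through their DSS vehicle arrays, the group where they were highest. Both are counted among the calls given here. These 16 calls are 53.3% of the measured members, where 19.2% of all genes tested were called (10.8% higher, 8.41% lower). The members were chosen with earlier results of these data known, so this share and those below are descriptions, not tests. The median change of the measured members was 0.50 against 0.05 over all genes tested. In mice given filgotinib with DSS, 15 measured members were lower than in DSS vehicle mice and 1, again Calcb, was higher, which is 53.3% against 11.3% of all genes tested (6.79% higher, 4.53% lower), and the median change was -0.59 against 0.0012 over all genes tested. Both comparisons use the same 5 DSS vehicle mice. Filgotinib with DSS differed from water in 6 of the 30 measured members (20%, against 9.83% of all genes tested): Ret, Vgf and Tac1 were higher (6.42% of all genes tested were) and Elavl3, Pcsk1 and Pcsk2 lower (3.41%). Groups were fully separate, with no mouse of one inside the range of the other, for 14 members in the first comparison (16% of all genes tested), 14 in the second (7.99%) and 3 in the third (9.57%). Of these 6, only Ret kept its call on leaving out each of the 10 mice in turn. Elavl3 lost it without water mouse 4 or 5 or filgotinib mouse 5 (highest adjusted p = 0.0562), and Vgf without water mouse 2 or 5 or filgotinib mouse 2, 4 or 5 (0.075). Pcsk1 lost it without any mouse but filgotinib 1 or 3 (0.0672), Pcsk2 without any but filgotinib 3 or 4 (0.0806) and Tac1 without any but filgotinib 1 (0.0766).

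The slides bear on all of these calls. With the slide as a block in the fit, Ret (2.58, adjusted p = 0.0499 by limma) and Tac1 (1.39, adjusted p = 0.0163) remained called in DSS vehicle against water, 2 of 30 members against 0.382% of all genes tested (0.154% higher, 0.227% lower). Against DSS vehicle, filgotinib with DSS kept calls of Gfra3 (-0.99, adjusted p = 0.0218), Nefl (-1.24, adjusted p = 0.0344) and Nefm (-0.96, adjusted p = 0.0299), 3 of 30 against 1.99% of all genes tested (1.06% higher, 0.922% lower). None of the 30 members was called in filgotinib with DSS against water, where 0.00908% of all genes tested were. Such a fit rests on few mice: for DSS vehicle against water it takes the difference from the 3 mice of slide 4. The only DSS vehicle mouse there, mouse 2, was the highest of its group for Tac1 (4.66, next 4.12). Within slide 4 each of the 16 called members differed in the same direction as over all mice, and so did each of the 16 called members of the other comparison within slide 2. For called members whose groups were fully separate over all mice, this direction was fixed in advance, since the slide mice are part of those groups. Their shared direction therefore gives no information on the slides. The called members whose within-slide value lay more than 1 SD between mice from that over all mice were Gfra3 (1.04), Tubb3 (0.16), Resp18 (0.98), Tac1 (1.39) and Galr1 (2.48) on slide 4 and Pcsk1n (-0.29) on slide 2; Galr1 on slide 2 lacks a filgotinib array above background. Syp, with 0.14 on slide 4, also differed by more than 1.5 times. Slide and group cannot be told apart for filgotinib with DSS against water.

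**Figure D2:**
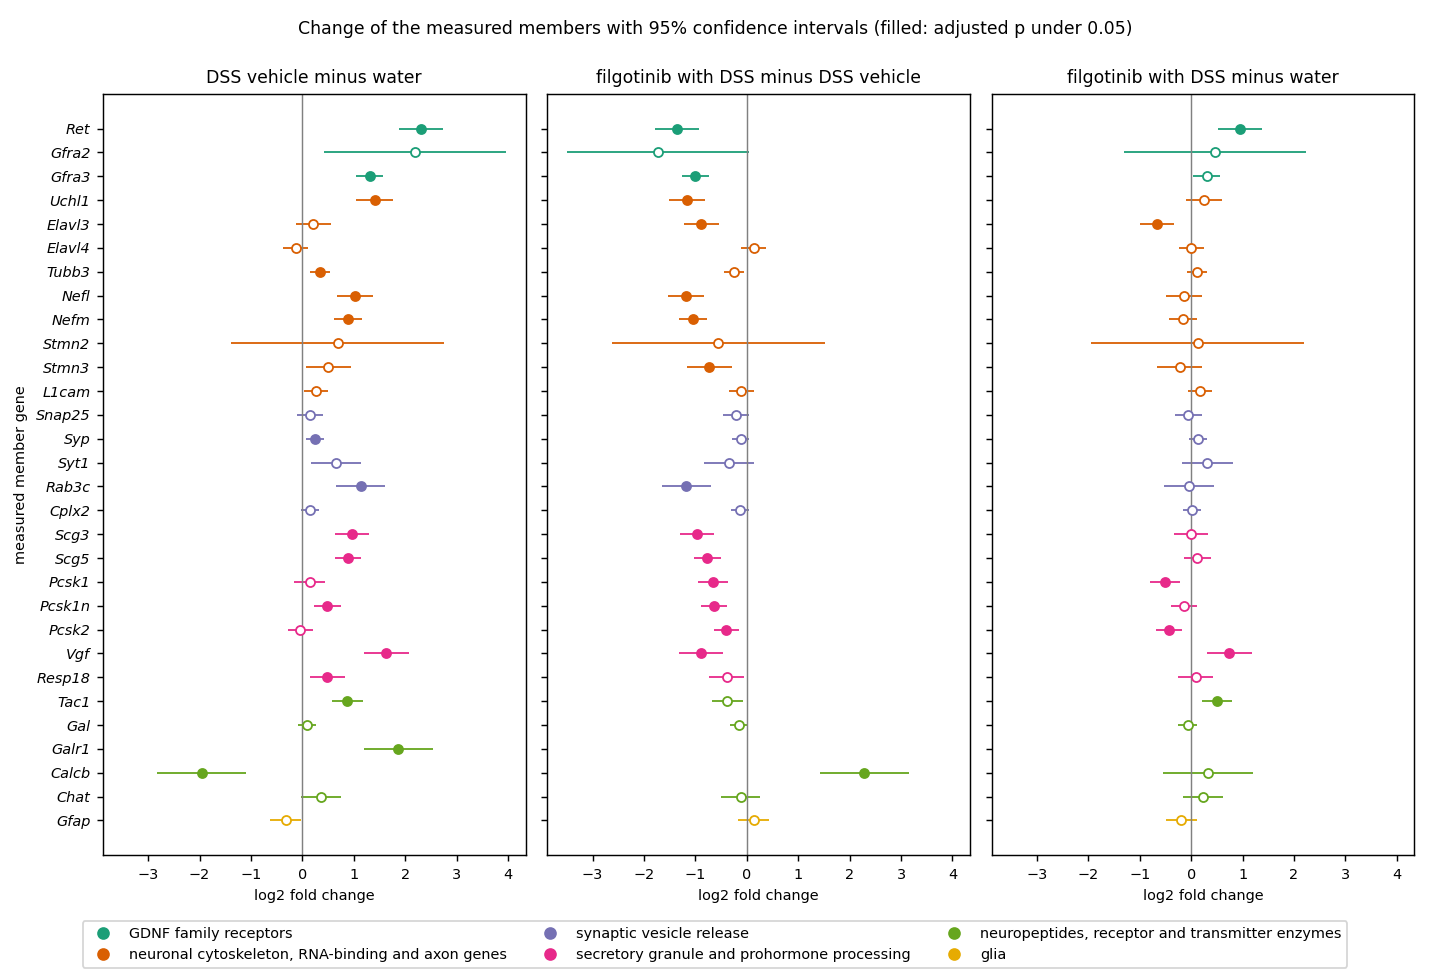
Log2 fold change (x axis) of each of the 30 measured members (y axis, coloured by role) in the 3 comparisons where it could be given, with 95% confidence intervals from the limma fit over 5 mice a group; filled points have an adjusted p under 0.05. Ret stands at 2.31, -1.36 and 0.95 from the left panel to the right, and Calcb at -1.96, 2.28 and 0.32. Galr1, well above background on 0 filgotinib arrays, is plotted in the left panel alone.

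The GDNF receptors were among the members that moved most: Ret and Gfra3 rose in DSS vehicle and were lower with filgotinib, and Gfra2 was not called. Ret read -5.01, -5.20, -5.49, -4.62 and -4.58 in water mice 1 to 5, -2.52, -2.46, -2.77, -2.65 and -2.96 in DSS vehicle, and -4.29, -3.77, -3.60, -4.58 and -3.92 in filgotinib with DSS. Every DSS vehicle mouse stood above every mouse of the other groups, and only 2 water and 2 filgotinib arrays were well above background for it. Ret was higher by 2.31 (SE 0.20, adjusted p = 1.85e-05 by limma) in DSS vehicle than in water and differed by -1.36 with filgotinib (SE 0.20, adjusted p = 0.00195), yet it stayed above water by 0.95 (SE 0.20, adjusted p = 0.0162), with filgotinib mouse 4 level with the highest water mice. Gfra3, the co-receptor that binds artemin, read -1.04, -1.01, -0.87, -0.92 and -0.98 in water, 0.64, 0.12, 0.11, 0.54 and 0.32 in DSS vehicle and -0.35, -0.62, -0.69, -1.01 and -0.65 in filgotinib with DSS. The water mice lay within a narrow band, all DSS vehicle mice lay above 0, and the filgotinib mice lay between, 1 of them inside the water range. Its differences were 1.31 (SE 0.12, adjusted p = 2.62e-05) and -1.01 (SE 0.12, adjusted p = 0.000575). Gfra2, the neurturin co-receptor, read -3.77, -5.28, -4.94, -4.98 and -3.50 in water, -2.30, -3.34, -2.50, -2.46 and -0.93 in DSS vehicle and -6.61, -2.68, -2.06, -2.69 and -6.14 in filgotinib with DSS. The water and DSS vehicle mice did not overlap, but the spread within groups was wide, and the difference of 2.19 (SE 0.83, adjusted p = 0.0783) missed the threshold, as did -1.73 (SE 0.83, adjusted p = 0.187) with filgotinib.

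Among the genes of the neuronal cytoskeleton, RNA binding and axons, 4 of 9 measured members rose in DSS vehicle (Uchl1, Nefl, Nefm and Tubb3), where 10.8% of all genes tested did. With filgotinib 5 of 9 were lower (Uchl1, Nefl, Nefm, Elavl3 and Stmn3), where 4.53% of all genes tested were. Uchl1, the ubiquitin hydrolase PGP9.5 used to stain nerves, read -0.66, -1.20, -0.42, -0.82 and -0.90 in water, 1.15, 0.61, 0.39, 0.56 and 0.31 in DSS vehicle and -0.25, -0.58, -0.60, -0.76 and -0.58 in filgotinib with DSS. DSS vehicle stood apart from both other groups, which overlapped each other. It differed by 1.40 (SE 0.17, adjusted p = 0.000162) and -1.16 (SE 0.17, adjusted p = 0.00143). Nefl, the light neurofilament, read -1.99, -1.41, -1.85, -1.54 and -1.50 in water, -0.47, -0.67, -0.95, -0.38 and -0.68 in DSS vehicle and -1.70, -1.78, -1.44, -2.36 and -1.75 in filgotinib with DSS. Nefm, the medium neurofilament that assembles with it, read -1.04, -0.62, -0.69, -0.69 and -0.63 in water, 0.14, 0.14, -0.17, 0.35 and 0.27 in DSS vehicle and -0.65, -0.76, -0.86, -1.31 and -0.89 in filgotinib with DSS. Both neurofilament genes were highest in all 5 DSS vehicle mice, with no overlap. Nefl differed by 1.03 (SE 0.16, adjusted p = 0.00124) and -1.18 (SE 0.16, adjusted p = 0.00124), and Nefm by 0.88 (SE 0.13, adjusted p = 0.000714) and -1.04 (SE 0.13, adjusted p = 0.000575). Tubb3, the neuronal beta-tubulin, moved less.

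Tubb3 read -2.05, -2.16, -1.94, -2.03 and -1.75 in water, -1.47, -1.68, -1.66, -1.54 and -1.85 in DSS vehicle and -1.98, -1.93, -1.93, -1.71 and -1.85 in filgotinib with DSS. The groups overlapped through water mouse 5 and DSS vehicle mouse 5. The difference was 0.35 (SE 0.09, adjusted p = 0.0174) in DSS vehicle against water, and -0.24 (SE 0.09, adjusted p = 0.096) with filgotinib. Elavl3, a neuronal RNA-binding protein of the Hu family, followed another order. It read -2.27, -2.56, -2.48, -2.10 and -2.14 in water, -1.93, -2.15, -2.02, -2.09 and -2.30 in DSS vehicle and -2.73, -2.78, -2.62, -3.40 and -3.38 in filgotinib with DSS. Filgotinib mice were the lowest, below every mouse of both other groups, and water and DSS vehicle overlapped. The difference was 0.21 (SE 0.16, adjusted p = 0.36) in DSS vehicle against water, -0.88 (SE 0.16, adjusted p = 0.00457) in filgotinib with DSS against DSS vehicle and -0.67 (SE 0.16, adjusted p = 0.0221) against water. Stmn3, a microtubule regulator, read -2.48, -2.31, -2.32, -2.16 and -2.37 in water, -1.08, -1.69, -2.27, -1.71 and -2.36 in DSS vehicle and -2.53, -2.25, -2.50, -2.96 and -2.52 in filgotinib with DSS. DSS vehicle mice 1, 2 and 4 were high and mice 3 and 5 were within the water range. Its change with filgotinib was -0.73 (SE 0.20, adjusted p = 0.034), which was lost on leaving out any 1 of 6 mice (DSS vehicle 1, 2 or 4, or filgotinib 1, 4 or 5; highest adjusted p = 0.0677). Elavl4 and the adhesion gene L1cam were not called in any comparison. Stmn2, a stathmin of growing neurites, varied widely between mice, from -3.97 to -0.89 in water, -3.44 to 0.42 in DSS vehicle and -4.74 to -0.32 in filgotinib with DSS.

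DSS vehicle mouse 5 was the highest of all 15 for Stmn2 and for Gfra2 (-0.93), and filgotinib mice 1 and 5 were the lowest for both. The smooth muscle markers, of which 9 of 11 were measured, had a summed level (log2 of their added levels) of 4.86 to 5.21 in water, 5.14 to 6.79 in DSS vehicle and 4.93 to 5.80 in filgotinib with DSS, and 0 of 9 were called in any comparison. The fibroblast markers (6 of 6 measured) summed to 1.82 to 4.59, 3.48 to 5.94 and 0.65 to 5.64, also with 0 called. In DSS vehicle against water the median change was 1.12 for the smooth muscle markers and 1.69 for the fibroblast markers. With filgotinib against DSS vehicle it was -0.20 and -1.59. The absence of calls therefore does not show that these markers were unchanged. The part of the depth of scraping in the spread of Stmn2 and Gfra2 was not tested.

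Of the genes of vesicle release, Rab3c and Syp rose in DSS vehicle and Rab3c was lower with filgotinib. Rab3c, a small GTPase of secretory vesicles, read -5.15, -4.12, -4.43, -4.23 and -3.74 in water, -3.12, -2.97, -3.61, -3.12 and -3.20 in DSS vehicle and -4.79, -4.15, -4.03, -4.26 and -4.65 in filgotinib with DSS. DSS vehicle did not overlap with either group; 1 water and 4 filgotinib arrays were not well above background. The differences were 1.13 (SE 0.23, adjusted p = 0.0042) and -1.17 (SE 0.23, adjusted p = 0.00636). Syp, the vesicle membrane protein synaptophysin, read 1.096, 1.03, 1.33, 1.20 and 1.28 in water, 1.41, 1.45, 1.63, 1.43 and 1.26 in DSS vehicle and 1.37, 1.20, 1.25, 1.41 and 1.35 in filgotinib with DSS. All groups overlapped. Its rise of 0.25 (SE 0.08, adjusted p = 0.0422) was lost on leaving out any 1 of 8 mice (water 1, 2, 4 or 5, or DSS vehicle 1, 2, 3 or 4), with a highest adjusted p of 0.105. Syt1, the calcium sensor of release, was not called (0.66, SE 0.23, adjusted p = 0.0568 in DSS vehicle against water), and its other 2 probes that passed the filter differed by -0.38 and 0.34. Snap25 and Cplx2, of the fusion machinery, differed by 0.15 each in DSS vehicle against water and were not called; theirs are the probes made of repeats.

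Most granule and prohormone genes changed: 5 of 7 rose in DSS vehicle (10.8% of all genes tested did), 6 of 7 were lower with filgotinib (4.53% of all genes tested were), and 4 (Scg3, Scg5, Pcsk1n and Vgf) did both. Scg3, a granin of dense-core granules, read -1.77, -1.83, -1.47, -1.46 and -1.73 in water, -0.35, -0.76, -0.96, -0.48 and -0.89 in DSS vehicle and -1.26, -1.41, -1.75, -2.03 and -1.79 in filgotinib with DSS. Scg5, the chaperone 7B2 of the convertase PC2, read 1.16, 1.04, 1.29, 1.22 and 1.08 in water, 2.25, 1.99, 2.00, 2.02 and 1.98 in DSS vehicle and 1.66, 1.40, 0.94, 1.01 and 1.37 in filgotinib with DSS. In both genes DSS vehicle stood above all other mice and the other 2 groups overlapped. Scg3 differed by 0.96 (SE 0.15, adjusted p = 0.00126) and -0.96 (SE 0.15, adjusted p = 0.00275), and Scg5 by 0.89 (SE 0.12, adjusted p = 0.000419) and -0.77 (SE 0.12, adjusted p = 0.00241). Pcsk1n, the precursor of the PC1 inhibitor proSAAS, read 1.73, 1.76, 1.94, 1.94 and 1.95 in water, 2.41, 2.55, 2.37, 2.26 and 2.17 in DSS vehicle and 2.06, 1.92, 1.45, 1.45 and 1.72 in filgotinib with DSS. Again only the DSS vehicle mice stood apart, by 0.49 (SE 0.12, adjusted p = 0.0121) and -0.63 (SE 0.12, adjusted p = 0.00555). Vgf, a neuropeptide precursor induced by nerve growth factor, read -4.81, -3.98, -3.76, -3.32 and -3.81 in water, -2.12, -2.40, -2.26, -2.39 and -2.35 in DSS vehicle and -3.49, -2.96, -3.18, -3.14 and -3.22 in filgotinib with DSS. The filgotinib mice lay between the groups and overlapped the water mice only through water mouse 4.

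Vgf differed by 1.64 (SE 0.20, adjusted p = 0.000227) in DSS vehicle against water, by -0.89 (SE 0.20, adjusted p = 0.0137) with filgotinib and by 0.74 (SE 0.20, adjusted p = 0.036) in filgotinib with DSS against water. Its second probe, shown above, was well above background on 9 arrays and differed by 0.10, -0.43 and -0.33. It thus did not show the rise of the used probe in DSS vehicle, and the 2 probes gave opposite signs in the last of these. The convertase genes behaved otherwise. Pcsk1, the convertase PC1, read -1.84, -1.93, -1.73, -2.04 and -2.03 in water, -1.68, -1.60, -1.98, -1.72 and -1.89 in DSS vehicle and -2.32, -2.50, -2.01, -2.92 and -2.40 in filgotinib with DSS. Pcsk2, the convertase PC2, read -1.81, -1.80, -1.81, -1.87 and -2.02 in water, -1.52, -1.84, -2.13, -1.97 and -2.06 in DSS vehicle and -2.24, -2.36, -2.19, -2.10 and -2.60 in filgotinib with DSS. Neither was called in DSS vehicle against water (Pcsk1 0.14, SE 0.14, adjusted p = 0.506; Pcsk2 -0.04, SE 0.12, adjusted p = 0.837), and filgotinib mice were the lowest group for both. Against DSS vehicle, Pcsk1 differed by -0.66 (SE 0.14, adjusted p = 0.00936) and Pcsk2 by -0.40 (SE 0.12, adjusted p = 0.0418), the latter lost without any 1 of 7 mice (DSS vehicle 1, 2, 4 or 5, or filgotinib 1, 2 or 5; highest adjusted p = 0.104). Against water they differed by -0.52 (SE 0.14, adjusted p = 0.0328) and -0.44 (SE 0.12, adjusted p = 0.0326). Resp18, a granule protein of endocrine cells, read 0.51, 0.45, 0.57, 1.05 and 0.54 in water, 1.48, 1.54, 0.87, 0.89 and 0.76 in DSS vehicle and 0.73, 0.86, 0.71, 0.52 and 0.75 in filgotinib with DSS. DSS vehicle mice 1 and 2 were high and the rest lay within the water range. The rise of 0.48 (SE 0.16, adjusted p = 0.0471) was lost without any 1 of 6 mice (water 1, 2, 3 or 5, or DSS vehicle 1 or 2; highest adjusted p = 0.114).

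**Figure D3:**
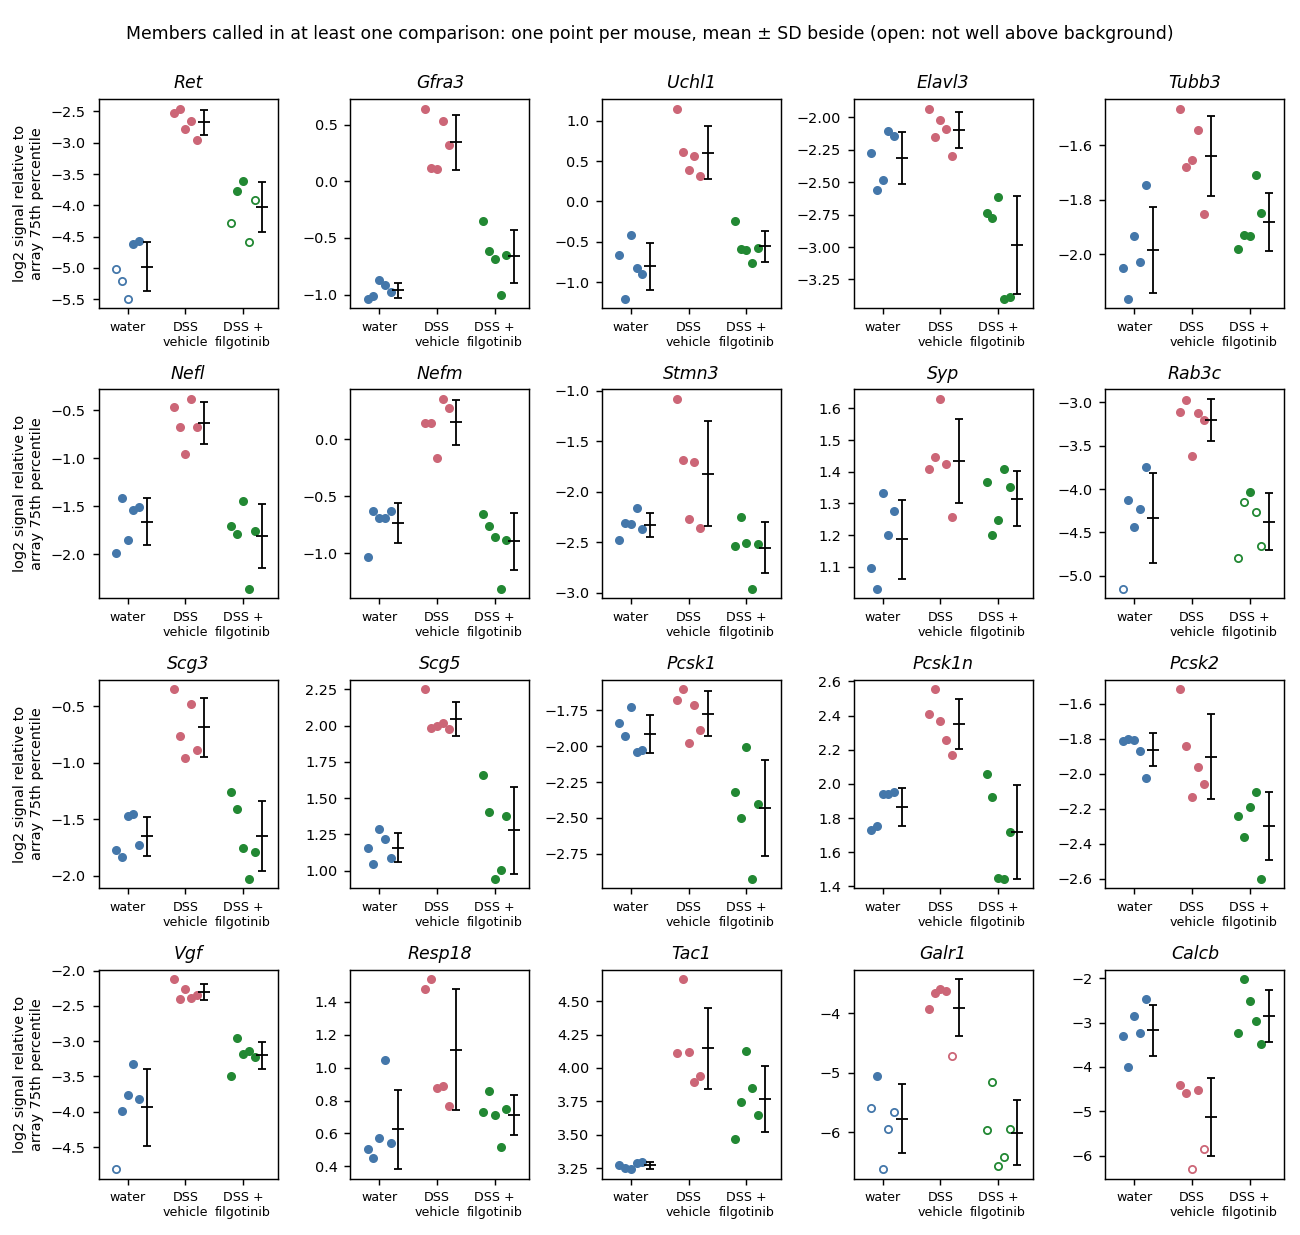
Level (y axis, log2 signal relative to the array's 75th percentile; each panel has its own range) in each mouse for the 20 members called in at least 1 comparison, with the mean and SD of the 5 mice beside each group; open points were not well above background. In the panels of Ret, Gfra3, Uchl1, Nefl and Nefm all 5 DSS vehicle mice lie above the mice of both other groups, and in the panel of Calcb they lie below.

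The peptide and transmitter genes did not move together. Tac1, the precursor of substance P and neurokinin A, read 3.27, 3.25, 3.24, 3.29 and 3.30 in water, 4.11, 4.66, 4.12, 3.90 and 3.94 in DSS vehicle and 3.47, 3.75, 4.13, 3.85 and 3.64 in filgotinib with DSS. Water mice were nearly alike and below all other mice, whereas the DSS groups overlapped. Tac1 was higher by 0.88 (SE 0.14, adjusted p = 0.00118) in DSS vehicle and by 0.50 (SE 0.14, adjusted p = 0.038) in filgotinib with DSS than in water, and the change with filgotinib of -0.38 (SE 0.14, adjusted p = 0.0901) missed the threshold. Its probe across an exon junction differed by 0.65, -0.39 and 0.26, the same signs. Galr1, a receptor for the neuropeptide galanin, read -5.58, -5.05, -6.62, -5.94 and -5.66 in water, -3.93, -3.66, -3.59, -3.63 and -4.72 in DSS vehicle and -5.97, -5.15, -6.56, -6.41 and -5.95 in filgotinib with DSS. It was well above background on 1 water array, 4 DSS vehicle arrays and 0 filgotinib arrays, and all DSS vehicle mice stood above the rest. Its fitted rise was 1.87 (SE 0.31, adjusted p = 0.00163), against a water group mostly at background readings. Galr1 passed the filter only through its DSS vehicle arrays, the group where it was highest. With filgotinib it was at least 1.24-fold lower than in DSS vehicle (adjusted p = 0.00195), a bound that sets the mean of the DSS vehicle mice against the lowest signal well above background on the filgotinib arrays. Gal, the gene of galanin itself, was not called and lay within -0.97 to -0.43 in all 15 mice.

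Calcb, which encodes the beta form of calcitonin gene-related peptide of sensory and enteric neurons, ran against the other called members. It read -3.31, -4.00, -2.85, -3.24 and -2.47 in water, -4.41, -4.59, -6.31, -4.52 and -5.86 in DSS vehicle and -3.24, -2.03, -2.52, -2.97 and -3.49 in filgotinib with DSS. All DSS vehicle mice were below all others, mice 3 and 5 of them not well above background, and the water and filgotinib groups overlapped. The differences were -1.96 (SE 0.41, adjusted p = 0.00519), 2.28 (SE 0.41, adjusted p = 0.00461) and, for filgotinib with DSS against water, 0.32 (SE 0.41, adjusted p = 0.645). Within slide 4 and slide 2 the first 2 were -1.93 and 2.29. Chat, the acetylcholine-making enzyme, was not called (0.36, SE 0.18, adjusted p = 0.18 in DSS vehicle against water). The single measured glial gene, Gfap, was not called either: it differed by -0.33 (SE 0.14, adjusted p = 0.121) and 0.13 (SE 0.14, adjusted p = 0.586) and was well above background on 9 arrays.

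**Figure D4:**
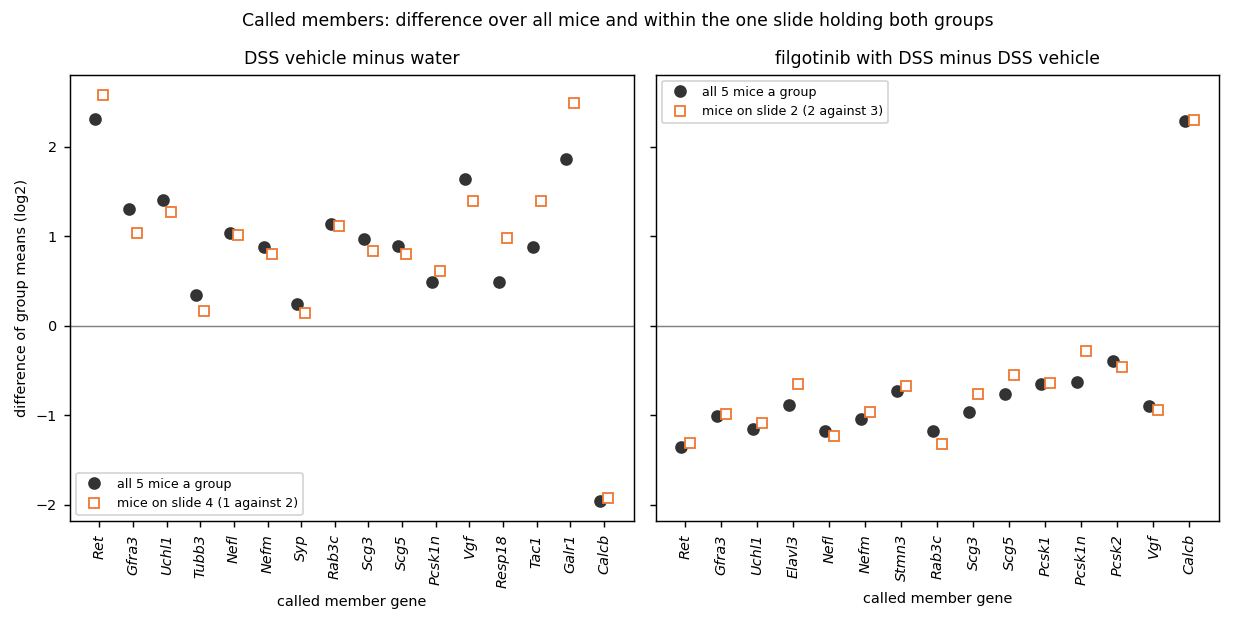
Difference of group means (y axis, log2) for each called member (x axis) over all 5 mice a group (filled circles) and over the mice of the 1 slide that holds both groups (open squares: slide 4, 1 DSS vehicle against 2 water mice, left; slide 2, 2 filgotinib against 3 DSS vehicle mice, right). Ret stands at 2.31 over all mice and 2.58 within slide 4. Galr1 is left out of the right panel, since it was well above background on 0 filgotinib arrays.

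The granule and neuronal members moved beside markers of enteroendocrine cells. Of 18 such markers, of which 17 were measured, 14 rose in DSS vehicle, 14 were lower with filgotinib and 2 were higher in filgotinib with DSS than in water. Of all genes tested, 10.8% rose in DSS vehicle and 4.53% were lower with filgotinib. Cck, the hormone cholecystokinin, rose by 3.43 (SE 0.24, adjusted p = 5.89e-06), Sst, somatostatin, by 1.68 (SE 0.20, adjusted p = 0.000193) and Scg2, a granin, by 1.53 (SE 0.13, adjusted p = 1.54e-05). With filgotinib Cck differed by -2.24 (SE 0.24, adjusted p = 0.00029), Scg2 by -1.17 (SE 0.13, adjusted p = 0.000378) and Gcg, the glucagon-like peptide gene, by -1.13 (SE 0.16, adjusted p = 0.00156). Cck (1.19, SE 0.24, adjusted p = 0.0132) and the granule enzyme gene Cpe (0.34, SE 0.10, adjusted p = 0.0465) were higher than in water, 2 of 17 (11.8%, against 9.83% of all genes tested). The summed level of the markers was 7.30 to 7.42 in water, 8.28 to 8.69 in DSS vehicle and 7.40 to 7.85 in filgotinib with DSS, so DSS vehicle mice stood apart. With the slide as a block, 4 markers were called in DSS vehicle against water (0.382% of all genes tested were) and 7 in filgotinib with DSS against DSS vehicle (1.99% were). Against water, filgotinib with DSS kept 0 of them called with that block, and leaving out 1 mouse without it gave 1 to 5. The part of enteroendocrine cells in the changes of the members was not tested.

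**Figure D5:**
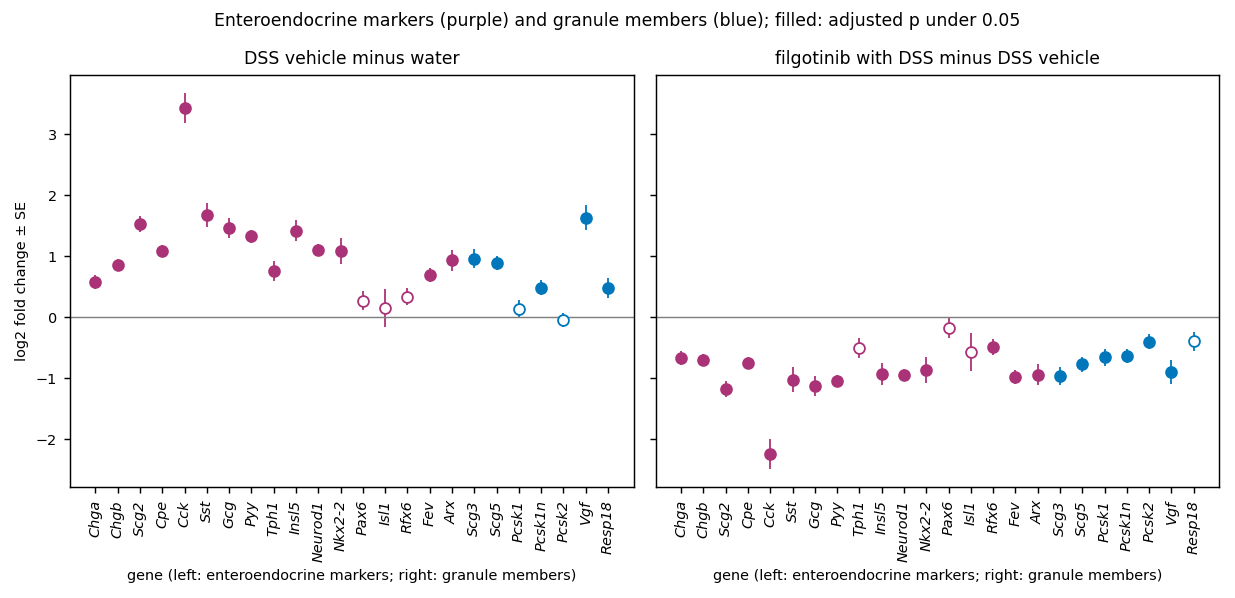
Log2 fold change with its SE (y axis) of 17 enteroendocrine markers (purple) and the 7 granule members (blue) in DSS vehicle against water (left) and filgotinib with DSS against DSS vehicle (right), 5 mice a group; filled points have an adjusted p under 0.05. Cck stands at 3.43 and -2.24, and Scg3 at 0.96 and -0.96.

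Markers of other cells moved in other ways. Of the tuft cell markers (9 of 11 measured), 5 were lower in DSS vehicle than in water (8.41% of all genes tested were). Among them were Trpm5, the taste channel, at least 2.46-fold (adjusted p = 0.000198), Dclk1 (-1.53, adjusted p = 0.000468) and Alox5 (-1.44, adjusted p = 0.0012). With filgotinib 4 were higher than in DSS vehicle (6.79% of all genes tested were), among them Gfi1b, at least 1.80-fold (adjusted p = 0.00109), Trpm5, at least 1.25-fold (adjusted p = 0.0119), and Alox5 (1.01, adjusted p = 0.0132). Against water, filgotinib with DSS was lower in 2 tuft markers (3.41% of all genes tested were lower), Trpm5 (-0.97, adjusted p = 0.0354) and Dclk1 (-0.78, adjusted p = 0.0352). The summed level of the tuft markers was 1.05 to 1.57 in water, 0.80 to 1.48 in DSS vehicle and 0.58 to 1.37 in filgotinib with DSS, so the groups overlapped. Of the epithelial markers, 5 of 8 rose slightly in DSS vehicle (10.8% of all genes tested rose), led by Krt8 (0.31, adjusted p = 0.00669), Krt20 (0.30, adjusted p = 0.0485) and Lgals4 (0.29, adjusted p = 0.00333). Cdh1 (0.10), Epcam (-0.03) and Slc26a3 (-0.23) were not called. Lgals4 alone was higher in filgotinib with DSS than in water (0.21, adjusted p = 0.0327), where 6.42% of all genes tested were. Immune markers (4 of 5 measured) had 0 calls.

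The rest of the pathway was read from 53 other genes of enteric neurons, glia, their growth factors and peptide receptors, of which 34 were measured. In DSS vehicle against water 9 were higher and 2 lower, 32.4% of those measured against 19.2% of all genes tested. Artn, the ligand of Gfra3, differed by 1.29 (SE 0.38, adjusted p = 0.0302), Nefh, the heavy neurofilament, by 1.26 (SE 0.34, adjusted p = 0.0191), and Syn2, a synapsin, by -1.21 (SE 0.25, adjusted p = 0.005). Artn was well above background on 2 of 5 water and 2 of 5 filgotinib arrays. It passed the filter only through DSS vehicle, and its change rests in part on background readings. In filgotinib with DSS against DSS vehicle 3 were higher and 7 lower, 29.4% against 11.3% of all genes tested. Nefh differed by -1.84 (SE 0.34, adjusted p = 0.00509), Syn2 by 1.38 (SE 0.25, adjusted p = 0.00483) and Phox2a, a transcription factor of autonomic neurons, by 1.40 (SE 0.39, adjusted p = 0.036). Nefh was well above background on 1 of 5 filgotinib arrays, so its fall rests mostly on background readings. Filgotinib with DSS differed from water in 3 higher and 3 lower genes, 17.6% against 9.83% of all genes tested. The largest changes were those of Phox2a (1.64, SE 0.39, adjusted p = 0.023), Map2, of dendrites (-0.99, SE 0.26, adjusted p = 0.0298), and Vipr2, a VIP receptor (-0.89, SE 0.23, adjusted p = 0.0286). With the slide as a block, 0 of the 11 calls of the first comparison were left, 5 genes were called in the second and 0 in the third. Of all genes tested, 0.382%, 1.99% and 0.00908% were called with that block. The median change of the 34 was 0.16, -0.16 and -0.0045. Gdnf itself was not measured, nor were Hand2, Npy and Adcyap1.

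The promoters of the granule and peptide genes are shown because these genes encode one secretory route. RefSeq promoter sequences (build GRCm38.p6, the 250 bases before the gene start) were held for 26 of the 38 members and for 27025 genes in all. In them 12 motifs were searched on both strands. TGACG, the core of the cAMP response element, was found in 10 members (38.5%) and in 19.8% of all genes; the full palindrome TGACGTCA, which contains it, in 1 member, Pcsk1 (1.77% of all genes); TGACGCAA in Tac1 and Calca (0.507% of all genes) and TGACGTAA in 0 members (0.525%). The other motifs were at or below their share in all genes: CANNTG in 65.4% of members and 69.3% of all genes, CCNNNNGCG in 34.6% and 35%, GCACC in 34.6% and 40.1%, TATAAA in 3 members and 14.3% of all genes, GGACAG in 7.69% and 21%, CAGCACC in 3.85% and 6.56%, CAGATGG in 3.85% and 5.05%, and CAGCACC followed after any 2 bases by GGACAG, the RE1 element bound by the neuronal repressor REST, in 0% and 0.037%. The members with TGACG were Elavl4, Scg3, Scg5, Pcsk1, Pcsk2, Vip, Tac1, Calca, Nos1 and Chat. These did not move together. Scg3, Scg5 and Tac1 rose in DSS vehicle, Pcsk1 and Pcsk2 were not called there, and Elavl4 and Chat were called in no comparison. Vip, Calca and Nos1 were not measured. The shares were not tested, TGACG is shown from among the 12 for its higher share in the members, and a match of letters is a description, not a binding site. Capitals mark TGACG or its reverse complement in Pcsk1 (chr13:75089607-75089856, plus strand), Scg3 (chr9:75684057-75684306, minus strand) and Tac1 (chr6:7554811-7555060, plus strand), with 3, 1 and 2 matches over both strands; the palindrome of Pcsk1 counts on each.
Pcsk1: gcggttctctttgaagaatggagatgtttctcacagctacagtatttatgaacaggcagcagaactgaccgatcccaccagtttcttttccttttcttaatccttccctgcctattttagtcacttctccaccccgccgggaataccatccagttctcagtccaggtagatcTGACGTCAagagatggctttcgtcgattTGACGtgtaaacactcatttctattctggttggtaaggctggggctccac
Scg3: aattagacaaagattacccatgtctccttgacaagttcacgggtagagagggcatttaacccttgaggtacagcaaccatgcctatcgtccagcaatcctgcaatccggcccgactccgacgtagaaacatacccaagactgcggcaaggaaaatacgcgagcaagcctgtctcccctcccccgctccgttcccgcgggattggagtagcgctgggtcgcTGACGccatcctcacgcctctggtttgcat
Tac1: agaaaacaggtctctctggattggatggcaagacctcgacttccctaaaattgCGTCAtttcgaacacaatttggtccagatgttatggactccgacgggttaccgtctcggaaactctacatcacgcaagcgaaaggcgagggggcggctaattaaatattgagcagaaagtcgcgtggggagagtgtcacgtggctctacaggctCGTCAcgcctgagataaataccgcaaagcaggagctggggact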

How the data were processed

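Gene expression was read in the colon mucosa of 15 mice, 5 in each of 3 groups taken from the labels, on 1-colour Agilent arrays. Per the file headers, Agilent Feature Extraction 11.5.1.1 gave each spot an intensity after background subtraction and detrending, with no scaling between arrays; the genome build is mm9. The deposited table of log2 values (32349 probes, 32299 matched by probe name) followed log2 of its own arrays at r of 0.9988 to 0.9997 across probes, with column medians of 8.84 to 8.86. It is not centred per gene; how it was normalized and filtered is not given in the sources used here, and it served as an alternative. The submitters' processing notes also name limma.

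Control spots and 101 probes with an outlier mark were left out, which left 56504 probes; 0 spots were saturated. Each value is the log2 processed signal less the 75th percentile of its array. Each gene, by the file's gene name, was represented by its brightest probe among those well above background on at least 5 of 15 arrays. Groups were compared in 1 two-sided fit in R 4.3.3 by lmFit and eBayes of limma 3.58.1, Benjamini-Hochberg adjusted over 22015 genes, and called under 0.05; the fit was tested on simulated data. Tables and plots were made with Python 3.11.15, pandas 2.3.3 and matplotlib 3.10.9. The number of arrays limits the precision.

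The members and lists were chosen with earlier results of these data known, so counts over them are descriptions. Every member is accounted for; those called in a comparison have their value in each mouse, and from every other list the 3 called genes with the largest change are named. The alternatives concerned scaling, background correction, the deposited values, the filter, the probe per gene, the samples fitted, the slide, the replicate number and leaving out each mouse; leaving out repeat probes was added after seeing the data. The replicate numbers do not pair the mice. Some items are not reported here.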

Additional observations from a re-analysis of the deposited data

Results flagged for a closer look

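A mouse far from the other 4 of its group was looked for by Dixon's ratio, its gap to the nearest mouse over the range of the group, among 90 sets (30 measured members in 3 groups). The critical value of 0.71 flags a share of about 0.05 of such sets by chance, and 8 sets passed it. In the water group, Nefm was low in mouse 1 (-1.04, next -0.69; ratio 0.831) and Resp18 was high in mouse 4 (1.05, next 0.57; ratio 0.802). In DSS vehicle, Scg5 was high in mouse 1 (2.25, next 2.02; ratio 0.852), Tac1 was high in mouse 2 (4.66, next 4.12; ratio 0.714) and Syt1 was low in mouse 4 (-2.84, next -2.34; ratio 0.893). In filgotinib with DSS, Chat (-3.70, next -3.15; ratio 0.807) and Syt1 (-3.34, next -2.70; ratio 0.829) were low in mouse 1, and Gfap was low in mouse 5 (-4.91, next -4.21; ratio 0.846). In the fit without the slide block, the calls of Nefm, Scg5 and Tac1 in DSS vehicle against water held without each of these mice. That of Resp18 was lost without other mice, not without water mouse 4. With the slide block, the value of Tac1 in that comparison rests on DSS vehicle mouse 2.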

How the results depend on the processing

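Counts of called members in DSS vehicle against water and in filgotinib with DSS against DSS vehicle were within 1.5 times the main 16 under all alternatives except the slide as a block (2 and 3), and no called change turned its sign under any alternative run. Leaving out 1 mouse gave 14 to 17, 14 to 17 and, for filgotinib with DSS against water, 1 to 5 members; 8 to 11, 8 to 12 and 2 to 6 other enteric genes; and 14 to 15, 13 to 14 and 1 to 5 enteroendocrine markers. In filgotinib with DSS against water the 6 members fell to 2 with arrays scaled to a common median, 2 with quantile normalization, 3 with only the 2 groups in the fit, 1 with the replicate block and 0 with the slide as a block. The 6 other enteric genes there became 3 with the common median, 3 with only 2 groups, 13 with no filter and 0 with the slide block; the 2 enteroendocrine markers became 1 under the common median, quantile normalization, the deposited table, the filter of at least 1 array, the mean of probes and the replicate block, 5 under normexp and 0 with the slide block. With signal required on all 15 arrays, which tests fewer genes, 7 and 6 other enteric genes were called in the first 2 comparisons (main 11 and 10); the slide block left 0 and 5 of them, and 4 and 7 of the 14 and 14 enteroendocrine markers. The replicate block, whose numbers share correlations of only -0.14 to 0.532, -0.516 to 0.118 and -0.392 to -0.0226, gave 14, 15 and 1 members.

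Signs turned only for changes that were not called; the cause was not tested. Under normexp 2 of the turned values, of Rab3c (adjusted p = 0.0226) and Gfap (adjusted p = 0.0279) in filgotinib with DSS against water, passed the threshold in the opposite direction. In DSS vehicle against water these were Elavl4 (0.0051), Pcsk2 (0.078) and Gfap (0.13) under normexp, and Stmn2 (-0.99), Pcsk2 (0.075) and Gal (-0.10) with the slide block; leaving out 1 mouse gave Pcsk2 -0.14 to 0.017. In filgotinib with DSS against DSS vehicle they were Chat (0.013) under normexp and Stmn2 (-1.11 to 0.046) on leaving out 1 mouse. In filgotinib with DSS against water they were Nefl (0.0012), Stmn3 (0.028), Rab3c (0.25), Galr1 (0.31) and Gfap (0.28) under normexp; Rab3c (0.080) and Cplx2 (-0.17) in the deposited table; Rab3c (0.0097) and Cplx2 (-0.14) under quantile normalization; Syt1 (-0.012) with the mean of probes; and Chat (-0.091) without repeat probes. There the slide block turned Gfra2 (-1.86), Tubb3 (-0.17), Stmn2 (-2.80), Snap25 (0.27), Syt1 (-0.081), Pcsk1n (0.32), Galr1 (1.02), Chat (-0.20) and Gfap (0.023), and leaving out 1 mouse gave Cplx2 -0.031 to 0.066, Elavl4 -0.082 to 0.066, Gfra2 -0.033 to 1.11, Rab3c -0.25 to 0.11, Scg3 -0.095 to 0.097 and Stmn2 -0.43 to 0.68. Signal over background limits the 8 members that were not measured and Galr1 with filgotinib.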
